A study of Mus musculus with 6 samples.

Results

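The genes described here are 10 transcription factor genes of the limb bud and of embryonic mesenchyme, Prrx1, Prrx2, Twist1, Twist2, Msx1, Shox2, Tbx15, Tbx18, Meis1 and Meis2, in a table of acetylated histone H3 (H3ac) across the mouse genome. A region of the table was taken for a gene when it overlapped the gene body extended by 5 kb on each side (GENCODE M21, build GRCm38/mm10). This gave 22 of the 24431 regions of the table, and each of the 10 genes had at least 1. The mark was mapped by CUT&RUN, in which an antibody tethers a nuclease to chromatin and the released DNA is sequenced, in cultured mesenchymal stem cells (MSCs) of mice. Young cells came from mice of 3-5 months and Old cells from mice of 18-22 months, both untreated, and OldAcetate cells came from mice of 18-22 months and were given sodium acetate at 5 mM over 3 days. All cultures were kept at 2% oxygen with 10% serum, and each group held 2 libraries. Strain, sex and the number of animals behind a library were not given in the sources used here, so the p-values below measure only the spread between these samples, which may be technical.

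Acetylation of the tails of histone H3 is found at active promoters and enhancers, and broad acetylated domains often cover genes that define the identity of a cell. Acetate is a source from which cells can make acetyl-CoA, the donor of the acetyl group. The 10 factors bind DNA through homeodomains (Prrx1, Prrx2, Msx1, Shox2, Meis1, Meis2), basic helix-loop-helix domains (Twist1, Twist2) or T-box domains (Tbx15, Tbx18). In the embryo they are known for limb outgrowth, for the proximal part of the limb and for craniofacial mesenchyme, and many of them stay active in mesenchymal cells after birth.

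The promoters under these regions differed in base composition. RefSeq (GRCm38.p6) gave the 250 bases before the start for 9 of the 10 genes, all but Tbx15, and all 9 windows lay inside an H3ac region. With the start regions of a gene pooled, Msx1 had the highest H3ac per length over its starts and Meis2 the lowest, so both promoters are shown. Those of Twist2, with the most CG dinucleotides, and of Prrx1, with the fewest, were added after their values were seen. The sequences run 5′ to 3′ on the strand of the gene and are cut to the stretch that overlaps no annotated exon of the gene. The Meis2 window lies inside the annotated gene, whose outermost start is at chr2:116065839. Its stretch has exon bases of Meis2 on both sides, so it is not sequence upstream of the whole gene. Capitals mark matches on either strand to TATAAA as found in the core promoters of many genes, to CCAAT boxes, to the motif GGGCGG bound by SP factors and to TAATTA as a homeodomain core, and no marked match overlaps another. The Msx1 stretch is chr5:37824586-37824835 (minus strand), the Meis2 stretch chr2:116064722-116064801 (minus), the Twist2 stretch chr1:91801211-91801460 (plus) and the Prrx1 stretch chr1:163313711-163313900 (minus).
Msx1: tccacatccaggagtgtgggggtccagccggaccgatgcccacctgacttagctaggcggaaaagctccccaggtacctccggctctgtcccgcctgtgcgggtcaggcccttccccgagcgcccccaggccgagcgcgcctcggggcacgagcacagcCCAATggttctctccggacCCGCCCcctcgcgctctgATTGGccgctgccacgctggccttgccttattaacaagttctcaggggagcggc
Meis2: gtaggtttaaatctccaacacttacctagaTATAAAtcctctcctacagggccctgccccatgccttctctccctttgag
Twist2: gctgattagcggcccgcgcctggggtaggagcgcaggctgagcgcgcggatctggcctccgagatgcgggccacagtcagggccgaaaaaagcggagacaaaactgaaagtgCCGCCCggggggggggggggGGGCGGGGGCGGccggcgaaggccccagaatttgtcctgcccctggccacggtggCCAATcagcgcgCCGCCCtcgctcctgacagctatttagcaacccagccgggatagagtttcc
Prrx1: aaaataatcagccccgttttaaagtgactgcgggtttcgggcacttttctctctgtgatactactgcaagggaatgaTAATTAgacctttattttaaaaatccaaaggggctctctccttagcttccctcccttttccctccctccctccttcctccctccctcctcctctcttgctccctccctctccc

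Over the full 250 bases, Msx1 held 68.0% G or C and 20 CG dinucleotides, and Twist2 held 68.8% and 23. Prrx1 and Meis2 each held 47.6% G or C, with 4 and 7 CG dinucleotides. Across the 9 promoters the median was 59.6% G or C and 15 CG dinucleotides, beside 52.4% and 6 over all 32851 promoters of the same length. Searched on both strands, GGGCGG occurred in 5 of the 9 promoters (32.7% of all promoters), CCAAT in 6 (33.8%) and TATAAA in 3 (12.4%). TAATTA occurred in Prrx1 alone (4.84% of all). CANNTG, the core bound by helix-loop-helix factors such as the TWIST proteins, was found in 3 of the 9 promoters (66.2% of all). TGACAG, a MEIS core, and AGGTGT, a T-box core, each occurred in 1 (15.9% and 11.8% of all). A match describes the letters of the window only. Some windows overlap annotated exons of their own gene, with all 250 bases in Prrx2, 170 in Meis2, 60 in Prrx1 and 16 in Meis1. The composition and the matches counted here include these exon bases.

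The libraries held 2163351 to 3039481 reads, and the values are RPM, the reads of a region scaled by the total of its library. Of the reads, 57.8% and 64.8% lay in the regions of the table in Young, 45.9% and 49.9% did so in Old, and 56.3% and 57.3% in OldAcetate. A member region held 11 to 538 reads in a library with a median of 78, so counting error alone came to 30.2%, 4.31% and 11.3%, respectively. All 10 MSC marker genes, among them Pdgfra, Ly6a and Thy1, had a region, whereas only Spi1 and Csf1r of 8 haematopoietic, Pecam1 and Kdr of 5 endothelial, Cdh1 of 4 epithelial and 0 of 4 skeletal muscle markers did. Ptprc, Cdh5, Epcam and Myod1 had no region. Summed over their regions, the MSC markers gave 790 to 942 RPM in Young, 628 to 692 in Old and 810 to 823 in OldAcetate, and the haematopoietic markers 41.7 to 44.1, 27.8 to 32.4 and 31.3 to 37.5. The part of marker levels and of the share of reads in regions in the results below was not tested. In such bulk libraries, fewer cells carrying the mark and less mark per cell cannot be told apart.

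H3ac lay over the start of each of the 10 genes, and at several of them it spread far beyond it. The 22 regions covered 375 kb and were 3 to 53.5 kb long with a median of 12.25 kb, beside a median of 5.5 kb over all regions. Of these, 12 lay within 1 kb of an annotated start of a protein-coding transcript and 10 lay away from any. An exon of the gene was overlapped by 18 of them, and the 4 others lay in introns of Twist2, Meis1 and Meis2. Regions of 20 kb or more numbered 8 of 22, against 6.99% of all regions, and 7 of the 10 genes had such a region, against 13.7% of the 14155 genes with any. A region of any length was found at 64.5% of the 21951 protein-coding genes. Region names carry a code made of AC, O and Y that the labels do not define. All 3 parts were present in 19 of the 22 (80.6% of all regions), the 2 regions at the 3′ end of Prrx1 had AC and Y (12.1% of all) and an intronic region of Meis1 had Y alone (4.66% of all).

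**Figure D1:**
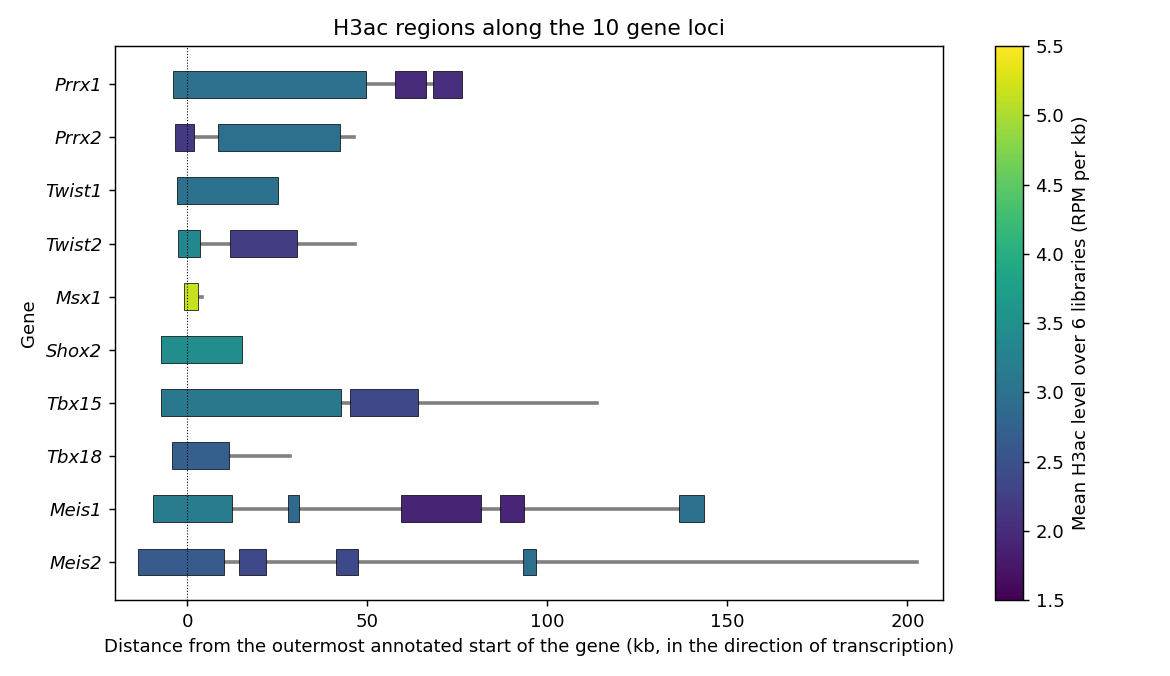
H3ac regions (boxes) along the 10 genes, with distance from the outermost annotated start in kb on the x axis, the gene body as a grey line and the mean level over the 6 libraries in RPM per kb as colour. Each gene has a region over its start, the longest is the 53.5 kb region of Prrx1, and the brightest is the 4 kb region of Msx1.

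Prrx1 and Prrx2 encode paired-related homeodomain factors of the limb bud and face. The region over the start of Prrx1 (chr1:163264001-163317500, 53.5 kb) read 177 and 162 RPM in Young and 134 and 137 RPM in Old, and 171 and 176 RPM were measured in OldAcetate. Both Old libraries lay below the other 4, and the treated libraries overlapped the young ones. Both regions of Prrx2 lay over a start. The 34 kb region (chr2:30843501-30877500) read 121 and 100 RPM in Young, 80.4 and 78.3 RPM in Old and 112 and 111 in OldAcetate, again with Old lowest. The 5.5 kb region at the outermost start (chr2:30831501-30837000) read 13.5 and 15.9, 12.5 and 6.76, and 12.1 and 10.4, so its OldAcetate libraries lay within the range of the Old ones.

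Prrx1 also had a pair of shorter regions at its 3′ end. The 8 kb region that runs past the gene end (chr1:163237501-163245500) read 20.1 and 18.8 RPM in Young, 11.6 and 11.5 RPM in Old and 16.1 and 20.0 in OldAcetate. Its Old libraries stood apart from the other 4, and its Young and OldAcetate libraries overlapped. The neighbouring 8.5 kb region averaged 1.97 ± 0.38 RPM per kb (SD, n = 6), and its OldAcetate libraries stayed below both Young ones.

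Twist1 and Twist2 encode helix-loop-helix factors known to hold back osteoblast differentiation. Twist1 lies within a 28 kb region (chr12:33955001-33983000), although its gene body is only 2.16 kb long. This region read 91.8 and 89.0 RPM in Young, 72.6 and 73.6 RPM in Old and 86.7 and 89.7 in OldAcetate. Spread within each group was small, but 2 libraries with 157 to 279 reads in this region cannot measure it well. The region over the start of Twist2 (chr1:91799001-91805000, 6 kb) read 24.0 and 21.6, 18.0 and 16.7, and 20.5 and 20.4, and the 3 groups did not overlap. The 18.5 kb intronic region of Twist2 differed widely between the Young libraries, at 56.6 and 36.4 RPM, and its other 4 values lay between 34.6 and 45.9.

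Msx1 encodes a homeodomain factor of the teeth, palate and limb that responds to BMP signals. Its 4 kb region (chr5:37821501-37825500) read 22.0 and 23.3 RPM in Young, 18.0 and 17.1 RPM in Old and 25.2 and 18.4 in OldAcetate. The treated libraries spanned both Young values. Shox2 encodes a homeodomain factor needed for the proximal limb bones. Its 22.5 kb region (chr3:66966501-66989000) covers the whole extended gene and also overlaps Rsrc1, so its reads cannot be assigned to either gene alone. It read 87.5 and 73.9 RPM in Young, 69.8 and 66.0 RPM in Old and 85.7 and 83.0 in OldAcetate, where both treated libraries fell between the young ones.

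Tbx15 and Tbx18 encode T-box factors of the axial and limb girdle skeleton. The 50 kb region of Tbx15 (chr3:99233001-99283000), which also overlaps the neighbouring gene Wars2, read 174 and 156 RPM in Young, 119 and 132 RPM in Old and 174 in each OldAcetate library. Old was again the lowest group, and the treated libraries lay at the upper end of the young range. A further 19 kb region over a start of Tbx15 (chr3:99285501-99304500) read 48.7 and 49.4, 43.0 and 34.6, and 47.0 and 48.0. The 16 kb region of Tbx18 (chr9:87719501-87735500) read 48.0 and 46.2 RPM in Young, 33.3 and 36.6 RPM in Old and 50.4 and 44.6 in OldAcetate, where the last spanned the first.

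Meis1 and Meis2 encode TALE homeodomain factors that mark the proximal limb bud. The start region of Meis1 (chr11:19006501-19028500, 22 kb) read 68.4 and 80.1 RPM in Young, 54.5 and 63.6 RPM in Old and 88.0 and 63.4 in OldAcetate, so the treated libraries lay further apart than the means of Young and Old. The start region of Meis2 (chr2:116055501-116079500, 24 kb) read 73.4 and 69.4, 55.5 and 52.9, and 62.2 and 65.1, and its 3 groups did not overlap.

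Away from the starts, Meis1 had 4 regions and Meis2 had 3. The 3 kb region of Meis1 (chr11:18988001-18991000) read 12.8 and 10.6 RPM in Young, 8.32 and 4.37 RPM in Old and 8.74 and 6.26 in OldAcetate, which corresponds to 11 to 39 reads. Its treated libraries stayed below both young ones. The 6.5 kb intronic region of Meis1 (chr11:18925501-18932000) read 14.1 and 14.3, 12.5 and 13.5, and 9.07 and 11.3. Here OldAcetate, not Old, was the lowest group. The remaining regions of Meis1 had 1.90 and 2.97 RPM per kb, and the 3 of Meis2 had 2.37 to 2.96.

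Summed over all regions of a gene, H3ac was highest at Tbx15, with 214 ± 11.7 RPM in Young, 164 ± 2.82 RPM in Old and 221 ± 0.262 in OldAcetate (SD, n = 2). Prrx1 followed with 209 ± 11.4, 161 ± 1.07 and 208 ± 7.91 RPM. The sums of these genes stood at the 97.6th and 97.4th percentile of the 14155 genes with a region. Most of the Tbx15 sum came from its 50 kb region, which also overlaps Wars2, so its reads cannot be assigned to Tbx15 alone. An SD of 2 libraries can fall below the counting error of their reads, so a small SD here does not measure precision. Msx1, with its single short region, had the lowest sum, at 22.7 ± 0.876, 17.6 ± 0.655 and 21.8 ± 4.84 RPM. The other genes lay between 34.9 RPM (Tbx18 in Old) and 168 RPM (Meis1 in Young).

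**Figure D2:**
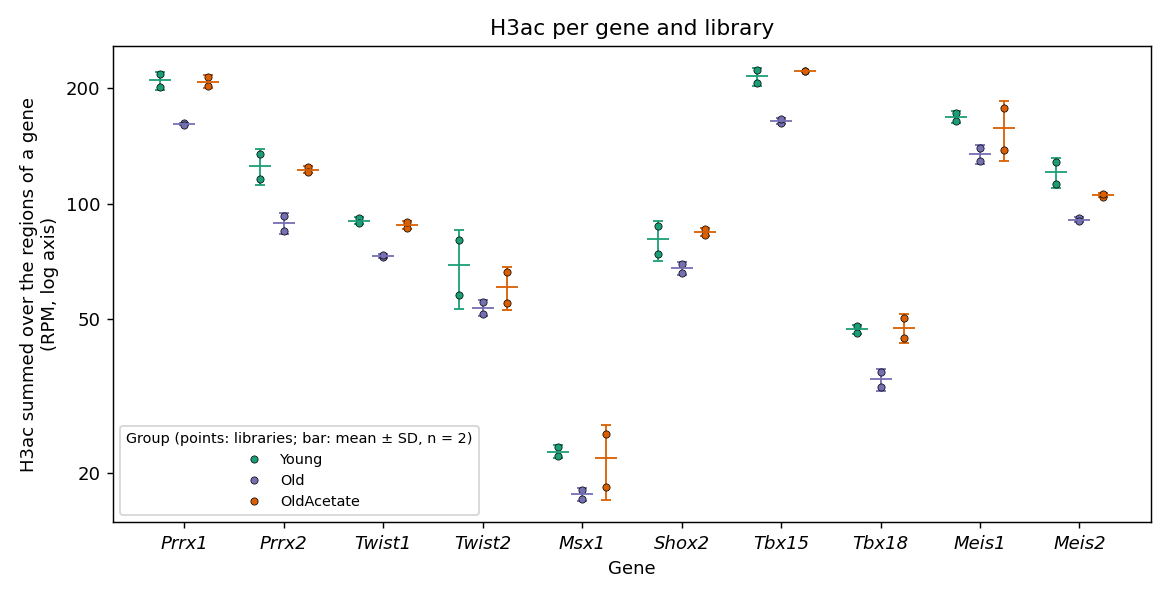
Summed H3ac of each gene in RPM (log axis), with each library as a point and the mean ± SD of each group (n = 2) as a bar. Old lay below Young without overlap at all 10 genes (71.5% of all genes), and OldAcetate lay above Old without overlap at 8 of the 10 (63.3% of all genes).

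Per length, Msx1 came first. It had 5.17 ± 0.824 RPM per kb of region over the 6 libraries (SD, n = 6), at the 99.4th percentile of genes, and Shox2 had 3.45 ± 0.398. Twist1 (3.00 ± 0.305), Tbx15 (2.90), Prrx2 (2.84), Prrx1 (2.75), Tbx18 (2.70), Meis2 (2.57), Meis1 (2.53) and Twist2 (2.50) followed, beside a median of 2.91 over all genes. They ran from the 56.0th percentile of genes at Twist1 to the 21.1st at Twist2, with Meis2 at the 25.6th and Meis1 at the 23.0th. Msx1 exceeded Shox2 by 1.72 ± 0.66 RPM per kb, and Shox2 exceeded Twist1 by 0.455 ± 0.218, each in 6 of 6 libraries. Each later neighbour in the order differed by less than the SD of that difference and in no more than 5 of 6 libraries.

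Within the families, none of the 4 pairs passed after adjustment when all regions of a gene entered its level. The adjusted p moved with the regions and lengths used, and with how many of the 4 pairs reached the smallest p. In log2 RPM per kb, Tbx15 exceeded Tbx18 by 0.11 ± 0.07 (SD, n = 6), in 6 of 6 libraries, with p = 0.0312 in an exact two-sided sign-flip permutation test, the smallest p that 6 libraries allow, and an adjusted p of 0.125 over the 4 pairs. Twist1 exceeded Twist2 by 0.27 ± 0.17 in 5 of 6 libraries (exact permutation p = 0.0625, adjusted p = 0.125). Prrx1 minus Prrx2 came to -0.04 ± 0.08 and Meis1 minus Meis2 to -0.02 ± 0.16, with adjusted p of 0.375 and 0.812 from the same exact permutation test. With start regions alone, the Twist pair turned to -0.17 and the Tbx pair was at 0.11, while the Meis pair turned to 0.26, each with an adjusted p of 0.0417 (exact permutation). All regions of Tbx15 and Tbx18 lie over a start, so the Tbx pair has the same values in both settings. Its adjusted p was lower than 0.125 here only because other pairs also reached the smallest p. Divided by the length of the extended gene body, all 4 pairs had an adjusted p of 0.0312 (exact permutation). That length is fixed for a gene, so it shifts the difference of a pair equally in every library. The gene body of Twist1 is 2.16 kb long and that of Twist2 46.6 kb. The gene-body setting therefore cannot tell a difference in H3ac from a difference in gene length. Region lengths are likewise fixed for a gene, at 28 kb for the start region of Twist1 and 6 kb for that of Twist2. They add an equal offset in every library to a difference per length of region. The permutation tests measure how steady a difference was over the 6 libraries. They do not separate H3ac from region length.

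The first comparison, Old against Young, asks how H3ac differed with the age of the mice. All 10 genes had a lower mean RPM in Old, at 71.0% (Prrx2) to 84.1% (Shox2) of the Young level, with a median of 77.2%. Over all genes with a region the median was 77.7% and the 10th to 90th percentile 65.3% to 92.9%. Both Old libraries lay below both Young libraries at 10 of 10 genes, and this held at 71.5% of all genes. The reverse held at 0 of 10 (0.89% of all genes). Over single regions Old was lower without overlap at 18 of 22, against 60.2% of all regions, and higher at 0 (1.29% of all). The median percentage of the 10 genes lay within 1 percentage point of that of all genes. Without Young replicate 1, the log2 ratio of Twist2 went from -0.37 to -0.11 and that of Shox2 from -0.25 to -0.12.

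With the values as given, 3 of the 22 regions were called lower in Old by limma at an adjusted p under 0.05, and 9.52% of all regions were called. They were the 34 kb region of Prrx2 (log2 fold change -0.47 ± 0.13 SE, limma adjusted p = 0.0215), the 50 kb region of Tbx15 (-0.39 ± 0.12, adjusted p = 0.0262) and the 8 kb 3′ region of Prrx1 (-0.73 ± 0.24, adjusted p = 0.0441). These calls did not hold when 1 library was left out, which leaves 1 library in a group. They were lost without Young replicate 1, Old replicate 2 or either OldAcetate library. Without Young replicate 2 or Old replicate 1 the called regions were in part others. Of the 3 named here, only the 34 kb region of Prrx2 was among them both times. All 22 log2 fold changes were negative, with a median of -0.37, beside 92.1% of all regions and a median of -0.35.

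The test relative to the genome at large shifted each library by its median deviation over all regions, so a change is measured against the shift of all regions (log2 of RPM + 0.5). On this scale, 0 of 22 regions passed limma at an adjusted p under 0.05 (0.00819% of all regions), and 0 passed at an unadjusted p under 0.05 (5.54% of all). The edgeR test on recovered reads, with RLE or TMM factors, likewise called 0 at either threshold. The median change was -0.02, with 12 regions below 0 and 10 above. The 3 kb region of Meis1 had the lowest p and the largest fall, -0.54 ± 0.32 (SE, limma adjusted p = 0.903), which ran from -0.91 without Old replicate 1 to -0.18 without Old replicate 2. The 6.5 kb region of Meis1 had the largest rise, 0.22 ± 0.25, which ran from 0.11 without Old replicate 2 to 0.34 without Old replicate 1 and was 0.14 without Young replicate 1. On scaled values the groups did not overlap, with Old lower, at 4 of 22 regions (17.1% of all). These were the 3′ region of Prrx1, the 34 kb region of Prrx2, the start region of Twist2 and the 3 kb region of Meis1. Old was higher without overlap at 2 of 22 (16.9% of all), the region of Shox2 and the 6.5 kb region of Meis1.

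**Figure D3:**
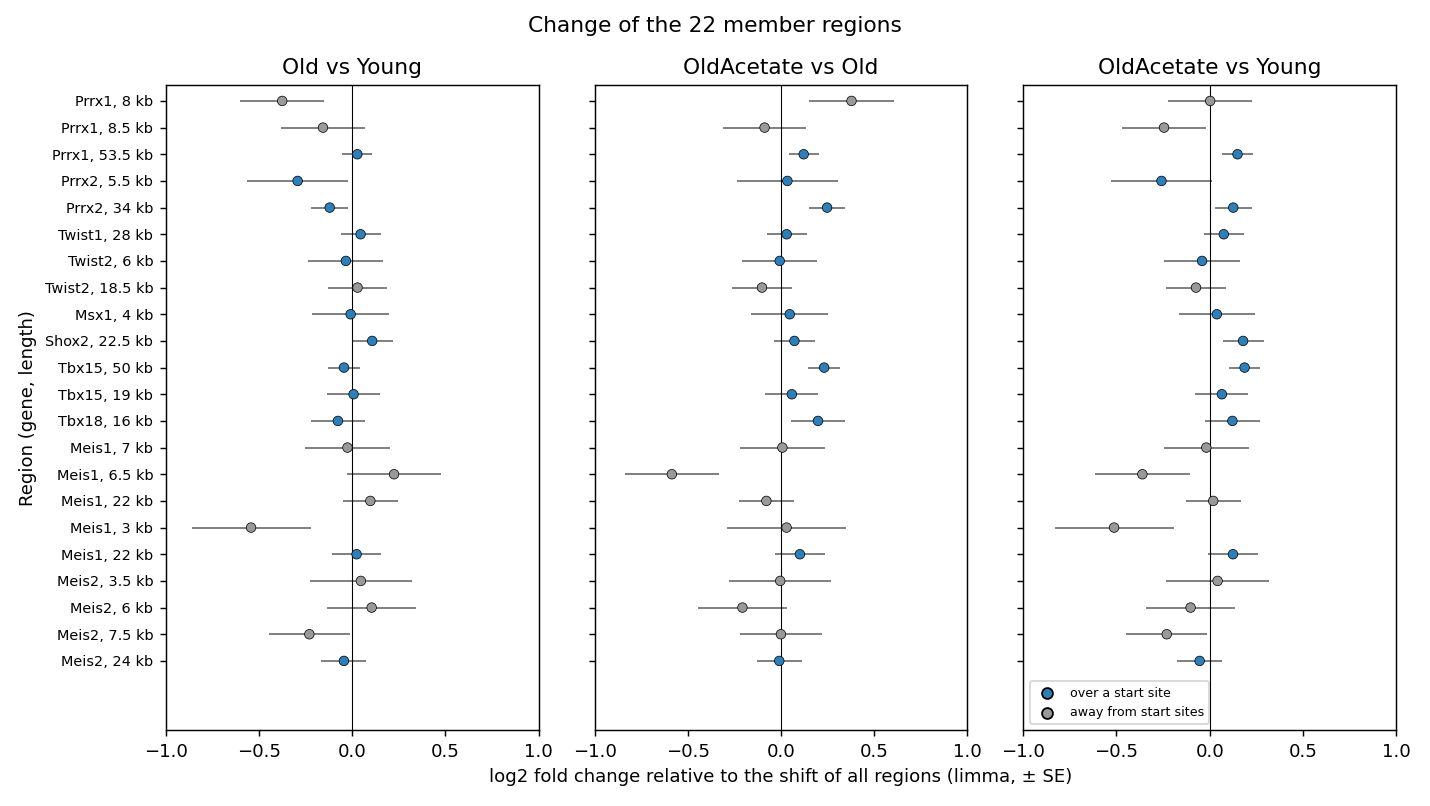
Log2 fold change of the 22 regions relative to the shift of all regions (limma, bars show the SE), one panel per comparison, with regions over a start site in blue and others in grey. No region passed an adjusted p under 0.05, and the widest bars belong to the short regions of Meis1, Meis2 and Prrx2.

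Acetate treatment of old cells was the second comparison. All 10 genes had a higher mean in OldAcetate than in Old, from 113% (Twist2) to 138% (Prrx2) with a median of 124%, beside 122% over all genes (10th to 90th percentile 102% to 146%). The largest percentages after Prrx2 were those of Tbx18 (136%), Tbx15 (135%) and Prrx1 (129%), and the smallest after Twist2 were those of Meis2 (116%) and Meis1 (117%). The groups did not overlap, with OldAcetate higher, at 8 of 10 genes (63.3% of all genes), all but Twist2 and Meis1, and at 13 of 22 regions (47.1% of all). OldAcetate was lower without overlap at 0 of 10 genes (1.58% of all) and at 1 of 22 regions (3.46% of all). Without OldAcetate replicate 1 the log2 ratio of Msx1 went from 0.31 to 0.06 and that of Meis1 from 0.23 to 0.04, and without OldAcetate replicate 2 that of Twist2 went from 0.18 to 0.04.

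As given, the 50 kb region of Tbx15 was the only one of the 22 called, with a log2 fold change of 0.47 ± 0.12 (SE, limma adjusted p = 0.0455), and 0.311% of all regions were called. The count was 0 without either Old or either OldAcetate library and 3 without either Young library, and edgeR without scaling called 0. Of the 22 changes 21 were positive (83.2% of all regions), and the exception was the 6.5 kb region of Meis1.

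Relative to all regions, limma called 0 of 22 (0% of all regions), and edgeR called 0. Each tool gave 3 of 22 at an unadjusted p under 0.05 (6.24% of all regions by limma). By limma these were the 50 kb region of Tbx15 with a log2 fold change of 0.23 ± 0.08 (SE, limma adjusted p = 0.734), the 34 kb region of Prrx2 with 0.25 ± 0.10 (adjusted p = 0.753) and the 6.5 kb region of Meis1 with -0.59 ± 0.25 (adjusted p = 0.771), the largest fall. Leaving out Old replicate 1 took the Tbx15 value to 0.10, and leaving out Old replicate 2 took it to 0.36. The largest rise was that of the 8 kb 3′ region of Prrx1, 0.38 ± 0.23 (adjusted p = 0.853), and it was 0.21 without OldAcetate replicate 2. The median was 0.03. On scaled values OldAcetate lay above Old without overlap at 5 of 22 regions (16.7% of all), in Prrx1 (the 53.5 kb and 8 kb regions), Prrx2, Shox2 and Tbx15. It lay below Old without overlap at 2 of 22 (17.2% of all), the 6.5 kb region of Meis1 and the 6 kb region of Meis2.

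OldAcetate against Young compares treated old cells with untreated young cells, and shares each of its groups with a comparison above. The genes stood at 87.2% (Meis2) to 104% (Shox2) of the Young level with a median of 97.6%, beside 94.7% over all genes (10th to 90th percentile 80.1% to 113%). Tbx15 (103%), Tbx18 (101%) and Shox2 were above 100% and the other 7 below. Only Twist1 and Meis2 kept their side of 100% whichever library was left out. Only Meis2 had both treated libraries below both young ones in its sum, at 128 and 113 RPM in Young and 104 and 106 in OldAcetate (26.9% of all genes). Treated libraries were higher without overlap at 0 of 10 genes (8.31% of all). Over regions, OldAcetate was lower at 8 of 22 (29.8% of all) and higher at 0 (7.6% of all). With the values as given limma called 0 of 22 (0% of all regions), with 0 at an unadjusted p under 0.05.

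On the scaled values limma and edgeR each called 0 of 22 (0% of all regions). At an unadjusted p under 0.05 there was 1 of 22 by either tool (5.08% of all regions by limma), the 50 kb region of Tbx15, with 0.19 ± 0.08 (SE, limma adjusted p = 0.964) and also the largest rise. The largest fall was again at the 3 kb region of Meis1, -0.51 ± 0.32 (adjusted p = 0.974), and it was -0.30 without OldAcetate replicate 2. OldAcetate lay above Young without overlap at 5 of 22 regions (17.7% of all), the long regions of Prrx1, Prrx2, Shox2 and Tbx15 and the 22 kb region of Meis1 away from its start. It lay below Young without overlap at as many, 5 of 22 (18.1% of all), namely the 8.5 kb region of Prrx1, the start region of Twist2, the 3 kb and 6.5 kb regions of Meis1 and the 7.5 kb region of Meis2.

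The changes can also be read by the position and length of the regions. Regions over a start had a median scaled change of 0.07 in OldAcetate against Old and of 0.10 against Young, while the 10 others had -0.04 and -0.09. In Old against Young these medians were -0.02 and 0.00. The 8 regions of 20 kb or more had a median of 0.13 in OldAcetate against Young, with 7 of 8 above 0, and of 0.09 against Old, with 6 of 8 above 0. Of all regions of that length, 49.3% and 53.3% were above 0. In Old against Young the 8 regions had a median of 0.03, with 5 of 8 above 0 (46.0% of all of that length). Apart from the 22 kb region of Meis1 away from its start, these 8 lie over a start. The splits by position and by length therefore overlap, and the split by position has no value over all regions beside it. These splits by length and position were looked at without a test, and the short regions have the fewest reads.

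**Figure D4:**
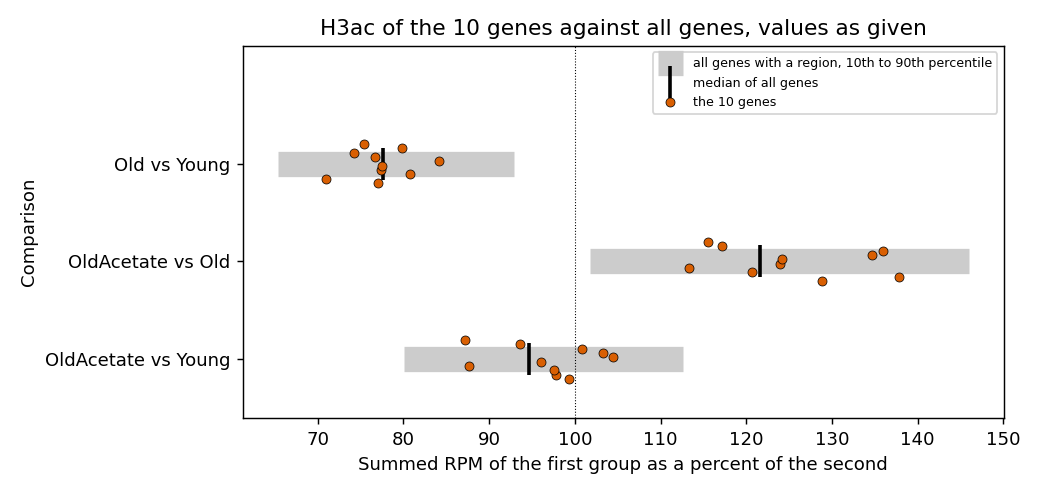
Summed RPM of each of the 10 genes (points) in the first group as a percent of the second, for the 3 comparisons, over the 10th to 90th percentile (grey bar) and the median (black line) of the 14155 genes with a region. The points lie at 71.0% to 84.1%, 113% to 138% and 87.2% to 104%, all within the horizontal span of the grey bars (points are spread vertically for legibility).

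The share of all region reads that lay in the 22 regions is a value per library that no scaling moves. It was 0.185% and 0.190% in Young, 0.180% and 0.191% in the Old libraries, and 0.198% and 0.196% in OldAcetate. Old lay across the Young values, whereas both treated libraries exceeded the other 4. The differences were -0.00203 percentage points for Old minus Young, 0.0113 for OldAcetate minus Old and 0.00929 for OldAcetate minus Young, against a pooled SD within groups of 0.00500. Exact two-sided permutation tests gave p = 1, 0.333 and 0.333 for these 3 comparisons, and 0.333 is the smallest p that 2 against 2 libraries allow. As a share of the whole library the regions held 0.115 ± 0.00695% in Young, 0.0887 ± 0.00158% in the Old libraries and 0.112 ± 0.00216% in OldAcetate (SD, n = 2).

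For context, 40 other genes of limb and mesenchymal patterning were read in the same fit, among them the Hedgehog factors Gli1 to Gli3, and Snai1, Snai2, Zeb1 and Zeb2 of the mesenchymal transition. Of these, 32 had a region (80 regions in all), and those without any included Shh, Tbx5 and Lmx1b. Relative to all regions limma called 0 of 80 in each comparison (0.00819%, 0% and 0% of all regions). An unadjusted p under 0.05 was found at 5, 4 and 4 of 80 in the 3 comparisons (5.54%, 6.24% and 5.08% of all regions by limma). The medians were -0.06, 0.05 and -0.00. As given, 14 of 80 were called lower in Old than in Young, 1 higher in OldAcetate than in Old and 0 in the last comparison. Over all regions 9.52%, 0.311% and 0% were called in either direction. The lowest p belonged to Gli2 (chr1:118890501-118902500) in Old against Young, with 0.56 ± 0.20 (SE, limma adjusted p = 0.852). In OldAcetate against Old it belonged to Tcf3 (chr10:80397001-80409000), with 0.48 ± 0.16 (adjusted p = 0.658). Regions of 20 kb or more numbered 14 of these 80 (6.99% of all regions). They were found at 10 of the 32 genes with a region (13.7% of all genes with any).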

How the data were processed

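The deposited table gives RPM for each region and library. The authors' file calls the values RPKM, but they were not divided by region length, and 100% of them were whole multiples of the value of 1 read in their column (tolerance 0.01), so whole reads and library totals were recovered. The processing notes name Bowtie2, Picard and mm10. How the regions were called, and whether the yeast DNA of the stop buffer was used for scaling, were not given in the sources used here.

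Values were taken as log2(RPM + 0.5), each library was shifted by its median deviation from the region means, and limma (3.58.1, R 4.3.3; trend and robust) was fitted over all 24431 regions and 6 libraries. P-values were adjusted by the Benjamini-Hochberg method over all regions, two-sided, with calls under 0.05. edgeR (4.0.16) quasi-likelihood tests on the recovered reads were alternatives. Both were also run on simulated data with known changes. The outcome is not reported here, so it gives no measure of how small a change either test could find in these regions. Shares and gene pairs were compared by exact permutation. Genes were placed with GENCODE M21. Fold changes on this scale understate those of low regions.

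The 10 genes and the lists were chosen with earlier results of these data known. All 10 genes were named; regions over a start were given in every library, and the others in ranges unless they were called or had the lowest p, the largest rise or the largest fall in a comparison. Of the context list, called regions were counted, and only the region with the lowest p was named. For the third comparison that region is not reported here. Alternatives were another pseudocount, scaling, filter, fit, tool, overlap and threshold, a replicate block, and leaving out each library.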

Additional observations from a re-analysis of the deposited data

How the results depend on the processing

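On the scaled values, 0 member regions were called in each comparison under every other pseudocount, filter, fit, overlap rule and threshold. The same held with quantile normalization and with the RLE and TMM factors of edgeR. The filter kept 21 of the 22 regions, and an extension of 50 kb gave 32. Without extension the same 22 regions were found, so that rule adds no further check. The counts changed where scaling was left out. Then 3 regions were called in Old against Young by limma and 3 by edgeR, and 1 in OldAcetate against Old by limma. Leaving out 1 library from the unscaled fit, chosen after seeing the data, gave 0 to 4 and 0 to 3. Without scaling, 14 and 1 of the 80 regions of the context list were called in these comparisons (9.52% and 0.311% of all regions). In Old against Young the 6.5 kb region of Meis1 went from 0.22 to -0.13 without scaling and to -0.12 with unscaled edgeR.

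Libraries that share a replicate number did not deviate together, since the differences between replicates correlated at 0.01, -0.03 and -0.04 between groups. The replicate block called 0 regions in each comparison, and with no scaling 5 in Old against Young and 2 in OldAcetate against Old.

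The difference in the share of region reads ranged from -0.00742 to 0.00336 points for Old minus Young when 1 library was left out, turning positive without Young replicate 2 or Old replicate 1. As a share of the library, OldAcetate minus Young was -0.00310 points. The median scaled change over the 22 regions went to -0.07 in Old against Young and to -0.03 in OldAcetate against Young without Young replicate 1.

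With start regions alone, the log2 differences were 0.076 (Prrx1 minus Prrx2), -0.17 (Twist1 minus Twist2), 0.11 (Tbx15 minus Tbx18) and 0.26 (Meis1 minus Meis2), and all but the first passed (adjusted p = 0.0417, exact permutation). The Tbx values are those of the main setting, and only their adjustment changed. Over the length of the extended gene body the differences were 0.30, 2.68, 0.53 and 1.05, each with an adjusted p of 0.0312 (exact permutation). No pair passed with all regions over their own length. The gene lengths add a fixed offset to each pair, so these values do not separate H3ac from gene length. Region lengths add a fixed offset in the same way in the other settings. Leaving out a library gave -0.068 to 0.014 for the MEIS pair. The lengths that divide the reads differ between these settings, and other causes were not tested. Counts of 11 to 39 reads limit the short regions.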
